A study of Mus musculus with 4 samples.

Results

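Bone morphogenetic protein (BMP) signalling was followed through 10 genes in cultured skin melanocytes, the pigment cells of the epidermis. They comprised the ligands Bmp2, Bmp4 and Bmp6, the receptors Bmpr1a and Bmpr2, the inhibitory Smads Smad6 and Smad7, and the Id genes Id1, Id2 and Id3. The genes were taken by symbol from the array annotation, and each was read from its probe set with the highest mean signal. All 10 were found among 12393 measured genes, and 7 of them were bright enough to be tested among 7436 tested genes. Bmp6, Bmpr2 and Smad6 lay below the filter on low signal, a mean signal of 81.1, and are given by their values and by the fit over every measured gene.

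The cells came from tail epidermis of female mice. The AhR knockout group held 2 mice of the AhRtm1Bra strain, which lack exon 2 of Ahr, the gene of the aryl hydrocarbon receptor. The wild-type group held 2 C57Bl/6 mice. Both kinds of culture were kept in melanocyte medium without serum over 6 to 8 weeks, and no agent that activates the receptor is named in the labels. Each of the 4 arrays held the RNA of an individual mouse, so n = 2 in each group. Whether the groups shared litters or days is not given in the sources used here.

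BMP ligands are secreted proteins of the TGF-beta superfamily. They bring type I receptors such as Bmpr1a and type II receptors such as Bmpr2 together, and the type I receptor then phosphorylates Smad1 and Smad5, which enter the nucleus with Smad4. The Id genes are classical direct targets of these Smads. Id proteins are helix-loop-helix proteins without a DNA-binding region that hold E proteins away from DNA, and Smad6 and Smad7 are feedback inhibitors. In human melanocytes, BMP4 has been described as lowering pigment synthesis.

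The 4 sequences shown here are the 250 bases before the start of Bmp4 and Bmp6, which were lower in both knockout arrays, and of Id2 and Id3, which behaved differently from each other. They are from RefSeq, build GRCm38.p6, written 5′ to 3′ on the strand of the gene. Capitals mark matches to GCGTG, the core of the AhR response element, to GGCGCC, a GC-rich element of BMP-activated Smads, and to GTCTG, a Smad box.
Bmp4, chr14:46390670-46390919, minus strand: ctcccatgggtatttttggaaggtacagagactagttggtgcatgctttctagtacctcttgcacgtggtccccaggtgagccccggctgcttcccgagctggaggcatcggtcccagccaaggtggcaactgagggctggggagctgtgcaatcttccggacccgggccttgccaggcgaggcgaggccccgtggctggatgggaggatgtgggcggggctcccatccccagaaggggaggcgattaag
Bmp6, chr13:38345466-38345715, plus strand: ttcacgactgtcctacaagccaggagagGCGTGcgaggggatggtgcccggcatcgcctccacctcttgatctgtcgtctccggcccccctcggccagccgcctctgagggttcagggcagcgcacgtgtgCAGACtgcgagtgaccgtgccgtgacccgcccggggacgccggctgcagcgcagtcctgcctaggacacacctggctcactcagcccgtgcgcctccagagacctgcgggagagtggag
Id2, chr12:25096093-25096342, minus strand: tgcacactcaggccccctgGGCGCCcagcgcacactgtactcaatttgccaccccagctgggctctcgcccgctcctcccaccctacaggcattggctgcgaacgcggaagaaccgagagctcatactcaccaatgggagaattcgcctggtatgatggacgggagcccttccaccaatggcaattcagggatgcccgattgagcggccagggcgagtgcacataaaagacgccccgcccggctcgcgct
Id3, chr4:136143572-136143821, plus strand: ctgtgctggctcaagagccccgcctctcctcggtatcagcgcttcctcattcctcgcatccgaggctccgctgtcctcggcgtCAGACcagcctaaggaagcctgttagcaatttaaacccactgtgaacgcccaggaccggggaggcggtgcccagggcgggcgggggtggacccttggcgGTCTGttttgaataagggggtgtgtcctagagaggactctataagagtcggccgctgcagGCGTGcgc
The search covered both strands, so that CACGC and CAGAC also count as matches, and no match in these windows overlapped another. The Bmp4 window held 0 matches, and the Bmp6 window held 1 GCGTG and 1 match to GTCTG. The Id2 window held 1 GGCGCC, and the Id3 window held 1 GCGTG and 2 matches to GTCTG. Among 32851 RefSeq promoter windows of this length, 28.2% held GCGTG, 9.59% held GGCGCC and 42.2% held GTCTG. A match is a run of letters and not a shown binding site. The promoter table matched 7 of the 10 genes.

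Cyp1b1, a known AhR target, served as a check of genotype, since the deleted exon need not lie under the Ahr probe sets. It read 14.0 and 23.1 in the knockout arrays against 1216 and 1410 in the wild-type arrays. The brightest Ahr probe set read 241 and 843 in knockout against 825 and 874 in wild type. Signals are linear and scaled to the same trimmed mean on every array, 500.2 to 500.3, and the lower quartile of all probe sets was 18.5 and 22.8 in knockout and 16.5 and 18.03 in wild type. AhR knockout 2 stood apart in its control probe sets, with a 3′ to 5′ ratio for Gapdh of 11.9, against 1.98 in AhR knockout 1 and 2.13 and 2.85 in wild type. The pigment genes Tyr, Tyrp1, Dct and Pmel were bright on every array, from 3189 for Tyr in wild type 2 to 32201 for Dct in AhR knockout 2.

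None of the 7 tested genes passed the test of AhR knockout against wild type at an adjusted p under 0.05 in limma, a linear model that shares the estimate of spread across genes. At an unadjusted p under 0.05, 3 of the 7 tested genes were lower and 0 were higher. Over all tested genes, 0.955% passed at the adjusted threshold (0.753% lower and 0.202% higher), and 12.9% were lower and 7.68% higher at the unadjusted threshold. The groups did not overlap for 5 of the 10 genes in the lower direction, namely Bmp2, Bmp4, Bmp6, Bmpr1a and Smad7, and for Id2 in the higher direction. Of all measured genes, 20.7% were separated in the lower and 29.4% in the higher direction. The median log2 difference over the 10 genes was -0.43, against 0.080 over all measured genes. Bmp2 and Bmp4 passed the filter on low signal through their wild-type arrays, so counts over tested members were tilted towards differences and carry no weight of their own.

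**Figure D1:**
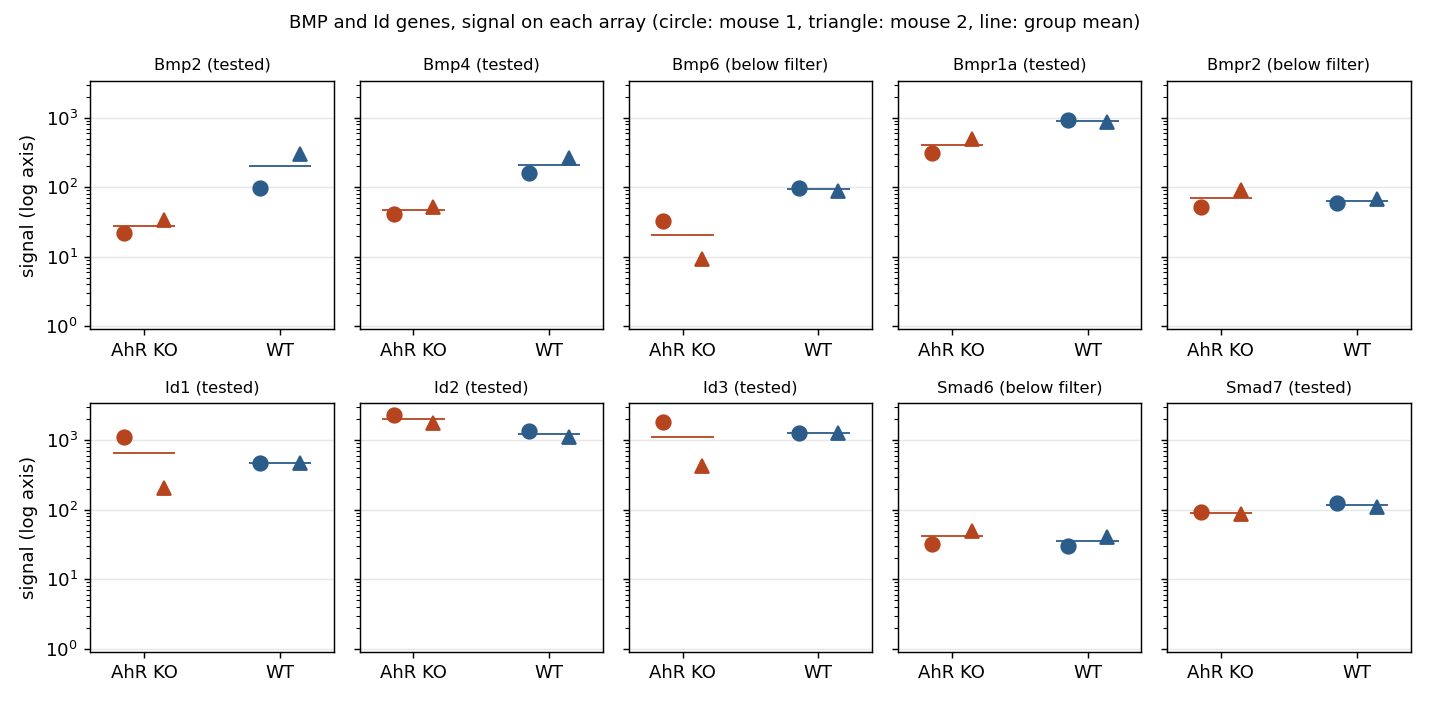
Signal (log axis) of the 10 BMP and Id genes on each array, with AhR knockout left of wild type, circles for mouse 1, triangles for mouse 2 and lines for group means (n = 2 each). The 3 ligands lie lower in both knockout arrays, Id2 lies higher in both, and Id1 and Id3 lie above wild type in AhR knockout 1 and below it in AhR knockout 2.

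The 3 ligands had lower signals in both knockout arrays than in either wild-type array. Bmp2, a ligand known for bone and heart development, read 22.0 and 33.5 in the knockout arrays against 97.1 and 303 in the wild-type arrays. Its group means were 27.8 ± 8.16 in knockout and 200.1 ± 146 in wild type (SD, n = 2 each), so the wild-type arrays themselves lay far apart while both knockout arrays were close to the lower quartile of all probe sets. The log2 difference, knockout minus wild type on the log2(signal + 16) scale, was -2.13 ± 0.50 (SE), with a 95% interval from -3.25 to -1.01 and adjusted p = 0.070 in limma.

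Bmp4, a ligand that acts in skin and hair follicle development, read 41.4 and 51.3 in the knockout arrays against 161 and 261 in the wild-type arrays. The groups did not overlap, and the knockout arrays lay close together. The log2 difference was -1.83 ± 0.39 (SE), which is 3.56-fold lower in knockout on that scale, with a 95% interval from -2.70 to -0.97 and adjusted p = 0.057 in limma. Both ligands missed the threshold narrowly only among the tested genes, where their wild-type arrays had carried them past the filter. With every measured gene tested, the adjusted p in limma was 0.21 for Bmp2 and 0.20 for Bmp4. After quantile normalization of all measured genes, the adjusted p in limma among the tested genes was 0.11 and 0.090. The size of the differences depended on which array was left out. Without AhR knockout 1, AhR knockout 2 or wild type 1 in turn, the log2 difference of Bmp2 was -1.94, -2.32 and -2.88. That of Bmp4 was -1.72, -1.95 and -2.15. Without wild type 2, the array with the highest signal for both genes, it was -1.38 for Bmp2 and -1.51 for Bmp4. In such fits the lone array of a group is assumed to vary like the other group.

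Bmp6, a ligand that also sets the iron hormone hepcidin in liver, read 32.6 and 9.17 in the knockout arrays against 98.3 and 87.9 in the wild-type arrays. Its group means were 20.9 ± 16.6 in knockout and 93.1 ± 7.38 in wild type (SD, n = 2 each). The wild-type arrays agreed closely, and AhR knockout 2 was below the lower quartile of its array. The log2 difference was -1.64, and with every measured gene tested it had an SE of 0.42 and an adjusted p of 0.21 in limma. In that setting only 0.00807% of all genes passed. The size rests on the pseudocount for a gene this dim, with -2.35 at a pseudocount of 1 and -0.90 at 64.

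Both receptors were measured, and they differed in their pattern. Bmpr1a, the type I receptor for BMP2 and BMP4, read 312 and 498 in the knockout arrays against 923 and 879 in the wild-type arrays. The groups did not overlap. The log2 difference was -1.16 ± 0.38 (SE), a 2.23-fold lower value in knockout, with a 95% interval from -2.01 to -0.30 and adjusted p = 0.14 in limma. Without AhR knockout 2 it was -1.48, and without AhR knockout 1 it was -0.84. Bmpr2, the type II receptor, read 51.5 and 90.1 in the knockout arrays against 60.3 and 68.6 in the wild-type arrays. Its groups overlapped, and the log2 difference was 0.075, with an SE of 0.39 and an adjusted p of 0.94 in limma with every measured gene tested.

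Bmpr1a had 5 probe sets, and the 4 dimmer ones were lower as well, by sizes that varied. Their log2 differences were -1.04, -0.61, -0.40 and -0.080. The last 2 of these did not separate the groups. In the first of them AhR knockout 2 read 129.6, above wild type 1 at 125.3, and in the dimmest it read 101, above both wild-type arrays at 85.8 and 71.7. Averaged over all its probe sets, Bmpr1a differed by -0.88 with adjusted p = 0.19. The transcript regions that these probe sets read were not analysed here.

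**Figure D2:**
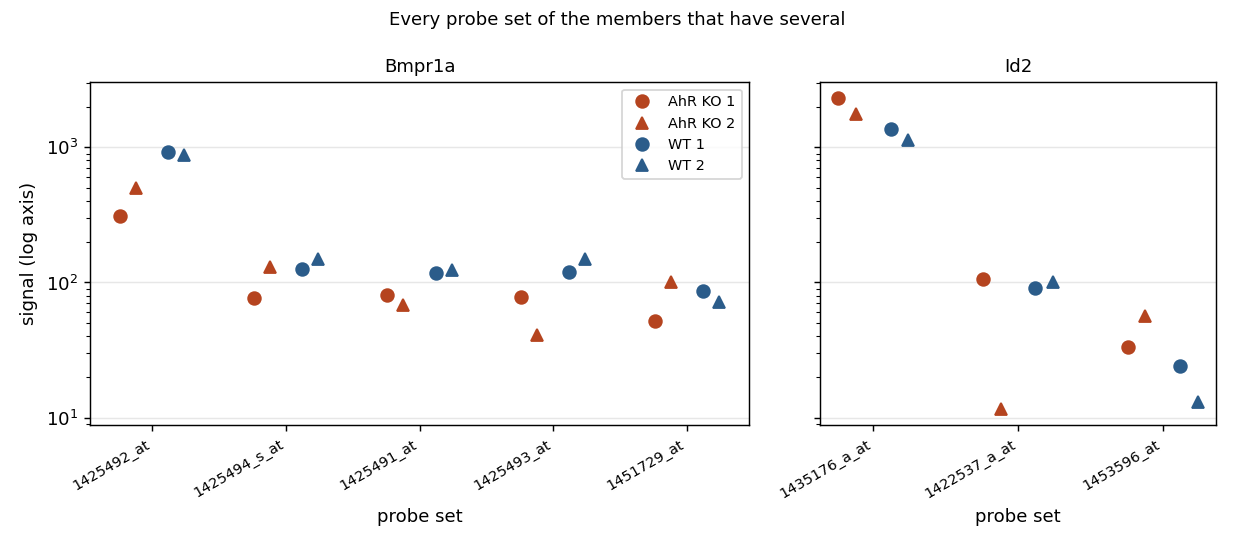
Signal (log axis) of every probe set of Bmpr1a and Id2, the members with more than 1, with the AhR knockout arrays left of the wild-type arrays and circles and triangles for mouse 1 and mouse 2. The Bmpr1a probe sets separate the groups except the second brightest and the dimmest, and the middle Id2 probe set is low in AhR knockout 2 alone.

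The Id genes did not differ from wild type in 1 direction. Id1, an inhibitor of E proteins and a standard readout of BMP activity, read 1117 and 208 in the knockout arrays against 474 and 463 in the wild-type arrays. The wild-type arrays were nearly equal, and the knockout arrays lay on either side of them. Id3, a close relative, read 1807 and 425 in the knockout arrays against 1267 and 1279 in the wild-type arrays, with the same arrangement. The log2 differences were 0.056 ± 0.64 (SE) for Id1 and -0.52 ± 0.58 for Id3, with adjusted p = 0.97 and 0.62 in limma. The 95% interval ran from -1.37 to 1.48 for Id1 and from -1.82 to 0.78 for Id3, and the interval of Id1 reached past a 2-fold difference in both directions.

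The gap between the knockout arrays was wide for both genes. AhR knockout 1 exceeded AhR knockout 2 by 2.34 in Id1 and by 2.05 in Id3 on the log2(signal + 16) scale. Of all tested genes, 0.403% had a gap at least as large as that of Id1 in either direction, and 0.941% one as large as that of Id3. The wild-type arrays differed by 0.033 in Id1 and by -0.013 in Id3, wild type 1 minus wild type 2. Taken singly against the wild-type mean, AhR knockout 1 was at 1.23 for Id1 and 0.50 for Id3, while AhR knockout 2 was at -1.11 and -1.55. Each of these single differences rests on 1 knockout array and carries no spread of the knockout group.

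Other measures also parted the knockout arrays. AhR knockout 2 had the raised Gapdh 3′ to 5′ ratio of 11.9, and its actin ratio was 28.0 against 6.999 in AhR knockout 1. AhR knockout 1 alone was high in the keratinocyte genes Krt5, Krt14 and Krt6a. Krt14, a keratin of basal epidermis, read 539 against 10.9 in AhR knockout 2 and 30.8 and 11.4 in wild type. Krt10, a keratin of the upper epidermis, ran the other way, with 56.4 in AhR knockout 1 and 157 in AhR knockout 2 against 74.8 and 89.0 in wild type. The summed signal of the 5 keratinocyte markers was 1385 and 288 in the knockout arrays against 188 and 213 in the wild-type arrays, with Krt1 near 0 on all of them, at 5.44 or less. The part of RNA quality and of keratinocytes in the Id values was not tested.

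Id2, the third Id gene, was higher in both knockout arrays. It read 2321 and 1765 in the knockout arrays against 1356 and 1126 in the wild-type arrays, without overlap. The log2 difference was 0.70 ± 0.36 (SE), with a 95% interval from -0.097 to 1.51 and adjusted p = 0.30 in limma, so it did not pass. Its dimmer probe sets differed from each other. The middle one read 107 and 11.5 in the knockout arrays against 90.7 and 100.7 in the wild-type arrays, low in AhR knockout 2 alone. The dimmest read 33.4 and 56.2 in the knockout arrays against 23.9 and 12.9 in the wild-type arrays, higher in both knockout arrays.

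**Figure D3:**
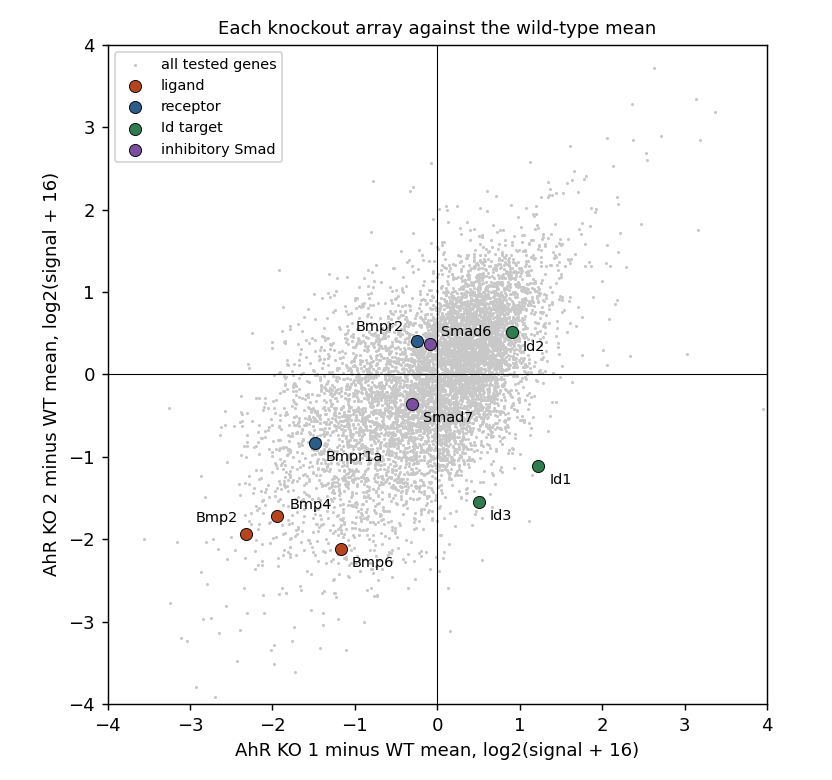
Difference of AhR knockout 1 (horizontal) and AhR knockout 2 (vertical) from the wild-type mean on the log2(signal + 16) scale, for the 10 BMP and Id genes in colour and all 7436 tested genes in grey, of which 6 lie beyond the axes. The ligands sit low on both axes, whereas Id1 (1.23 and -1.11) and Id3 (0.50 and -1.55) sit right of 0 and below it.

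The inhibitory Smads differed little. Smad7, which blocks receptor signalling of both the BMP and the TGF-beta branch, read 92.0 and 88.1 in the knockout arrays against 124 and 111 in the wild-type arrays. The groups did not overlap, but the log2 difference was only -0.33 ± 0.36 (SE), with a 95% interval from -1.12 to 0.47 and adjusted p = 0.61 in limma. Smad6, which acts mainly on BMP signals, read 32.2 and 50.2 in the knockout arrays against 30.1 and 40.6 in the wild-type arrays. These values overlapped at a dim level, with a log2 difference of 0.14. With every measured gene tested, its SE was 0.35 and its adjusted p 0.86 in limma.

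Genes with further roles in the pathway were read from a list of 52, of which 43 were measured and 22 tested. In limma, 0 of the 22 passed, and at an unadjusted p under 0.05 7 were lower and 1 was higher, beside 12.9% lower and 7.68% higher of all tested genes. Grem1 passed the filter on low signal through its wild-type arrays, so these counts too are tilted towards differences. Over the tested genes of the list, 17 had lower and 5 had higher values, and the median log2 difference was -0.56, against 0.0055 over all tested genes. Over all 43 measured genes of the list the median was -0.054, with 24 lower and 19 higher, so the lower median was found among the brighter genes. Of the other ligands on the list, 7 were measured, and all of them were too dim to test.

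Receptors and extracellular antagonists were lower in part. Acvr2a, a type II receptor shared by BMPs and activins, read 107 and 168 in the knockout arrays against 278 and 600.1 in the wild-type arrays. Its log2 difference was -1.50 ± 0.44 (SE), and adjusted p was 0.11. The type I receptors Acvrl1 and Acvr1 differed by -0.58 and -0.77, with adjusted p = 0.39 for both in limma. Acvr1 overlapped, with 1002 and 346 in the knockout arrays against 1101 and 944 in the wild-type arrays. Crim1, a membrane protein that binds BMPs, read 139 and 117 in the knockout arrays against 356 and 672 in the wild-type arrays. Its log2 difference was -1.82 ± 0.40 with adjusted p = 0.065, the lowest adjusted p of the list. Grem1, the secreted BMP antagonist gremlin, read 46.0 and 49.6 in the knockout arrays against 137 and 107 in the wild-type arrays, and differed by -1.11 with adjusted p = 0.14. Twsg1, a secreted modulator of BMP, differed by -1.16 with adjusted p = 0.15. Nbl1, another secreted BMP antagonist, was the gene of the list that was higher at the unadjusted threshold, and it was named after its value was seen. It read 347 and 287 in the knockout arrays against 185 and 106 in the wild-type arrays, with adjusted p = 0.17.

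Inside the cell, the transducer Smad1 read 5067 and 2554 in the knockout arrays against 6860 and 6921 in the wild-type arrays. Both knockout arrays were lower, AhR knockout 2 by more, and the log2 difference was -0.93 ± 0.37 with adjusted p = 0.20. Smad5 and the common partner Smad4 differed by -0.21 and 0.032. Among intracellular inhibitors, Skil, which represses Smad targets, differed by -1.45, Tob1 by -0.95 and Ski by -0.46, with adjusted p of 0.16, 0.21 and 0.51. All 3 were lower in both knockout arrays than in either wild-type array, as were 1987 of all 7436 tested genes. Id4, the remaining Id gene, differed by 0.51 and the transcription factor Gata2 by -0.054. The E proteins that Id proteins bind had lower means without passing. They differed by -0.88 for Tcf3, -1.03 for Tcf4 and -0.33 for Tcf12, with adjusted p of 0.31, 0.30 and 0.60 in limma. Tcf4 overlapped, with 829 and 2189 in the knockout arrays against 1813 and 4252 in the wild-type arrays.

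**Figure D4:**
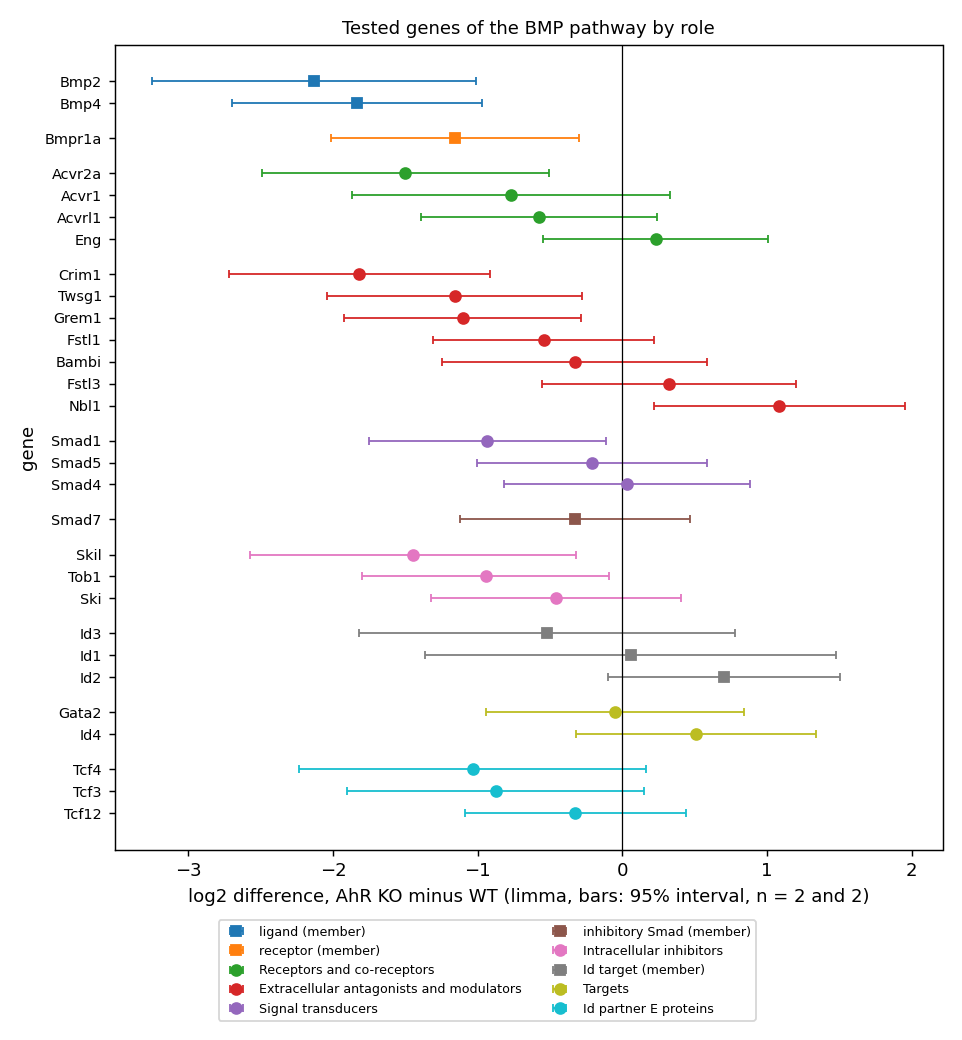
Log2 difference, AhR knockout minus wild type, of the 7 tested BMP and Id genes (squares) and the 22 tested genes of the wider pathway (circles) by role, with 95% intervals from limma (n = 2 and 2). The intervals of Bmp2, Bmp4, Bmpr1a and 8 genes of the wider list do not reach 0, and none of the genes passed after adjustment over all tested genes.

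Markers of other cell types differed in both directions. All 7 endothelial markers had a lower mean, 6 of them without overlap, and 0 passed in limma, with 5 at an unadjusted p under 0.05. Of all 7436 tested genes, 1987 were lower without overlap, and 12.9% were lower at that unadjusted threshold. The summed signal of the 7 endothelial markers was 6550 and 1934 in the knockout arrays against 13296 and 16399 in the wild-type arrays. None of the 7 was near 0 on any array. Against the wild-type mean, AhR knockout 1 had a median of -1.21 over these markers and AhR knockout 2 one of -2.86, while Bmp2 was at -2.32 and -1.94 and Bmp4 at -1.95 and -1.72 in the same order. The endothelial markers were lowest in AhR knockout 2, and Bmp2 and Bmp4 were slightly lower in AhR knockout 1. Bmp2 read close to the lower quartile of all probe sets in both knockout arrays, which left little room for a lower value. AhR knockout 2 was also the array with the raised Gapdh ratio, so no conclusion is drawn from this order. Bmp6 was lowest in AhR knockout 2, at -2.11 against -1.17 in AhR knockout 1. Of the 6 fibroblast markers 4 had a lower mean. The summed signal of the 6 was 318 and 245 in the knockout arrays against 590.1 and 794 in the wild-type arrays. Lum and Dcn were higher, by 0.71 without overlap and by 0.39 with overlap. Col3a1 passed the test in limma with -2.29 and adjusted p = 0.041, but its wild-type arrays had carried it past the filter. With every measured gene tested its adjusted p in limma was 0.19. Col1a1 and Pdgfra were near 0 in AhR knockout 2, at 2.47 and 0.99. Of the 4 mural markers 2 had a higher and 2 a lower mean log2 signal, and none of those tested passed in limma. Leukocyte and glial markers were mixed. Lyz2, a lysozyme of macrophages, read 2628 and 2776 in the knockout arrays against 669 and 881 in the wild-type arrays, which is 1.79 on the log2 scale. C1qb, a complement gene of macrophages, differed by 1.04, and the leukocyte markers Ptprc and Cd68 by -0.33 and -0.71. The glial marker S100b differed by 1.84 and Ngfr by -1.03. All 5 keratinocyte markers had a higher mean log2 signal. Of the 6 melanocyte markers 5 also had a higher mean, among them Sox10 with 1.54 and Tyr with 1.197, and Mitf differed by -0.41. None of the tested leukocyte, glial, keratinocyte and melanocyte markers passed in limma. The part of these cells in the ligand values was not tested. In RNA of whole cultures, fewer cells of a type and less RNA per cell cannot be told apart.

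**Figure D5:**
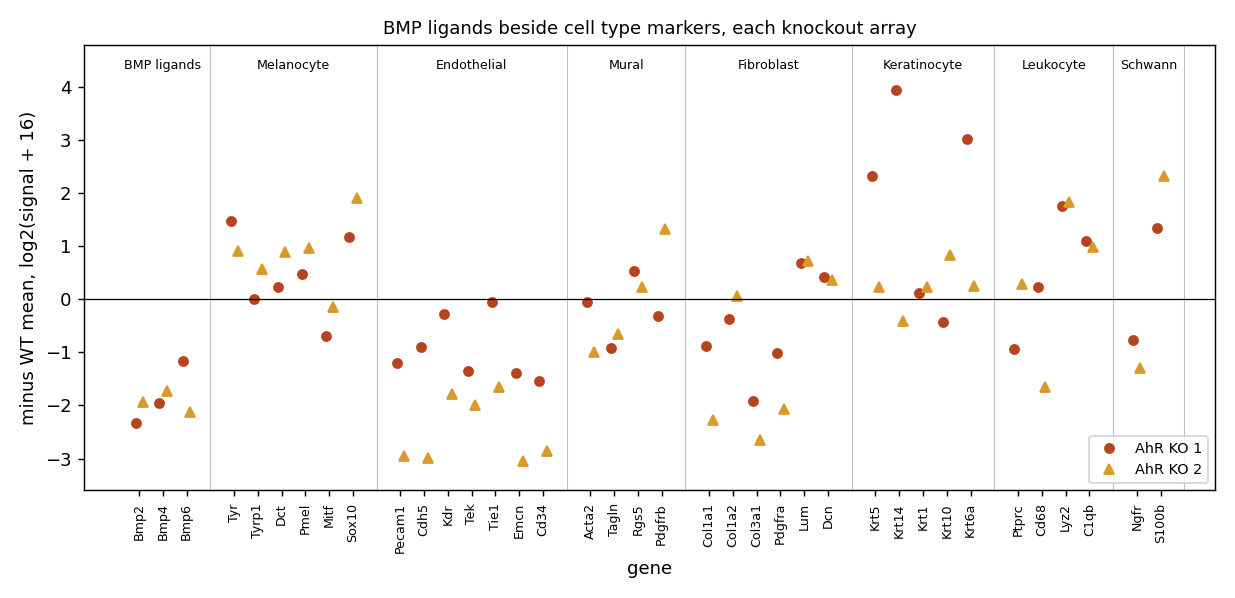
Difference of AhR knockout 1 (circles) and AhR knockout 2 (triangles) from the wild-type mean on the log2(signal + 16) scale for the 3 BMP ligands and for cell type markers. The endothelial markers lie lower in AhR knockout 2 than in AhR knockout 1. Bmp2 and Bmp4, which are dim in both, lie at similar depth. Krt5, Krt14 and Krt6a stand high in AhR knockout 1 alone.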

How the data were processed

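Amplified, biotin-labelled RNA from 4 melanocyte cultures was measured on arrays with 22690 probe sets and Affymetrix control names, 1 array a mouse, per the labels' protocols. Linear signal intensity was deposited, made by the authors with MAS5, per the submitters' processing notes, with no version given and no detection calls used here. Of the probe sets, 64 were controls and 20380 had 1 gene symbol in the platform annotation, 691 several and 1555 none. Symbols were updated by gene identifier to RefSeq, which held 20351 of them.

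The probe set with the highest mean stood for a gene. Values became log2(signal + 16), and the top 60% of genes by mean signal were tested with limma 3.58.1 in R 4.3.3 (lmFit, eBayes with a trend, Benjamini-Hochberg over 7436 genes, threshold 0.05). An exact permutation of 2 against 2 arrays cannot go below p = 0.333, so no such test was run. The number of arrays limits the precision. On simulated arrays of these genes, 19.2% of 2-fold and 92.4% of 4-fold changes were recovered over 5 runs. Their noise was independent and, for a given gene, of equal size on every array, and the shares also depend on how many changes were planted. Real shares may be lower.

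The members and lists were chosen with earlier results of these data known. Named genes were the 10 members, Ahr, Cyp1b1 and the 3 tested genes of each role with the smallest p, and in addition those said to have been named later. Alternatives were other scalings, pseudocounts, filters, probe set rules, variance models, thresholds, a replicate block and each array left out. Python 3.11.15 with matplotlib 3.10.9 drew the figures.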

Additional observations from a re-analysis of the deposited data

How the results depend on the processing

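Over all tested genes, 71 passed (15 higher and 56 lower). The number was 8 after quantile normalization, 43 with a pseudocount of 1, 1 with no filter, 20 with the top 40% of genes, 364 at an adjusted p under 0.10, and between 20 and 1360 with an array left out. With array medians set equal it was 72, of which 23 were higher and 49 lower. Choosing probe sets and genes by mean log2 signal, an alternative added after the data were seen, gave 61 and left Bmp2 untested. Of the BMP and Id genes 0 passed, against 1 (Bmp4, adjusted p = 0.046) with the mean of probe sets, 2 (Bmp2 and Bmp4) at an adjusted p under 0.10, and 0 to 4 with an array left out. Of the wider pathway list 0 passed, against 1 (Crim1) at the looser threshold and 0 to 7 with an array left out.

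The title numbers are shared by both genotypes with no stated meaning, and deviations of AhR knockout 1 and wild type 1 from their group means correlated at 0.353 across genes. With the number as a replicate block, 1406 genes passed, with 3 of the BMP and Id genes (Bmp2, Bmp4 and Bmpr1a, all lower) and 9 of the wider list. That fit has even less spread of its own per gene and leans more on the spread shared across genes. Since no pairing is stated, its counts carry little weight.

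Id1 and Id3 changed sign with the knockout array left out. Id1 ran from -1.11 without AhR knockout 1 to 1.23 without AhR knockout 2, and Id3 from -1.55 to 0.50 in the same order. Bmp2, Bmp4, Bmp6, Bmpr1a and Smad7 were lower, and Id2 higher, in all 15 alternatives run. These signs carry little weight, since groups that do not overlap keep their sign when any 1 array is left out. Several other alternatives altered the test and left the differences as they were. The cause of the shifts of Id1 and Id3 was not tested. Several ligand values lie close to the dim end of the arrays, where signal over background limits what can be seen.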
